A study of Mus musculus with 6 samples.

Results

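Pluripotent stem cells keep their identity through a small set of nuclear proteins that activate each other's genes. OCT4 (gene Pou5f1), a POU-domain factor, and SOX2, an HMG-box factor, bind side by side at a joined POU-SOX element, and NANOG, a homeodomain factor, occupies many of the same enhancers. The spalt zinc finger proteins SALL4 and SALL1 bind partners of this set, and Utf1, Zscan10 and L1td1 are genes that are active with it in undifferentiated cells. UTF1 is a chromatin-bound factor, ZSCAN10 (also called Zfp206) is a SCAN-domain zinc finger factor, and L1TD1 is an RNA-binding protein related to the first open reading frame of LINE-1 elements.

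These 8 genes were followed by their symbols in a table of 31641 genes, and each was found once. All 8 were among the 18019 genes with enough reads to be tested. The data are RNA-sequencing counts from E14 cells, a mouse embryonic stem cell line. Control libraries (CON, 3 samples) were labelled wild type for Nat10 and had no doxycycline. Knockdown libraries (KD, 3 samples) were labelled Nat10 knockdown and had doxycycline, so effects of the drug and of lower Nat10 cannot be told apart. NAT10 is the enzyme that places N4-acetylcytidine on RNA, and the series asks what it does for pluripotency. The labels do not give the knockdown construct, the length of doxycycline treatment, or whether replicates were grown separately. The p-values therefore measure only how these samples spread, which may be technical.

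Libraries held between 33770755 and 39524273 counts. Nat10 was counted 4960, 5496 and 4877 times in CON samples but 1100, 1164 and 1050 times in KD samples (values are given in the order of replicate numbers 1 to 3 throughout). Of 12 stem cell markers all 12 were detected. Their summed level in CPM (each library's counts scaled to the same total) was 5286 to 5351 in CON and 2157 to 2176 in KD. Summed markers of other cells were low in both groups. Those of fibroblasts (8 markers, 4 tested) were at 23.8 to 28.1 CPM in CON and 51.1 to 56.7 in KD, with no row for Lum and Dcn in the table, which lists only genes with a count. Those of primitive endoderm (8 of 8 tested) were at 110 to 117 CPM in CON and 89.4 to 89.8 in KD, and those of trophectoderm (8 of 8 tested) at 139 to 150 and 120 to 134. Neural markers (6 of 8 tested, no row for Dcx) were at 77.5 to 83 CPM in CON and 83.2 to 86.7 in KD. That sum joins changes in opposite directions. Of the 6 tested, 3 were lower and 2 higher in KD (edgeR adjusted p under 0.05), with a median log2 fold change of -0.72. Over all genes tested 30.8% were lower and 32.2% higher. The part of these shifts in the results below was not tested, and in bulk RNA fewer cells of a type and less RNA per cell cannot be told apart.

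The DNA just before the start sites was read for POU and SOX letters because these factors act on each other's genes. Start-site sequences from RefSeq (GRCm38.p6) were matched by symbol for 7 of the 8 genes, and Sall4 was not in that table. The 3 shown are those of the POU, SOX and NANOG genes, from 250 to 21 bases before the start on the forward strand. Capitals mark matches on either strand to TTTGCAT directly followed by NACAANG (the joined POU-SOX element, N being any base), TTTGCAT (its POU part), ACAATG (a SOX site) and AGGTCA (a nuclear receptor half-site). They lie at chr6:122707239-122707468 for Nanog, chr3:34649745-34649974 for Sox2 and chr17:35505782-35506011 for Pou5f1.
Nanog: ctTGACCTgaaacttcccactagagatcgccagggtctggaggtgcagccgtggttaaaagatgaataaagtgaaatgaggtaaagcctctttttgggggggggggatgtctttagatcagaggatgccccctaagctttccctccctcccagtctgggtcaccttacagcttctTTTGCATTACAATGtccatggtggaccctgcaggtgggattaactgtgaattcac
Sox2: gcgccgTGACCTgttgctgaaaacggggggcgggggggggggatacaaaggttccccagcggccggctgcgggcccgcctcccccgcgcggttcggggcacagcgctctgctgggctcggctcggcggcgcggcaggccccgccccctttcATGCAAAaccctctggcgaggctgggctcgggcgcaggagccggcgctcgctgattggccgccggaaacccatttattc
Pou5f1: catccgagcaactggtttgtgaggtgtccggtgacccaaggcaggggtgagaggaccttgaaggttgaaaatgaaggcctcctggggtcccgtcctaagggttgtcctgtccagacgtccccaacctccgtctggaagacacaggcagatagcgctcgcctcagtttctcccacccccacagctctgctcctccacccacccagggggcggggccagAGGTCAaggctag

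In Nanog the joined element TTTGCATTACAATG lay 75 to 62 bases before the start. Windows of 250 bases before 32851 start sites of 27025 genes were searched on both strands, and 3 windows (0.00913%) held it, 2 of them belonging to Nanog. For each of the 7 matched genes, matches are given for 1 window. The POU part alone, which is contained in the joined element, was in Nanog and Sox2 of the 7 genes and in 4.12% of all windows. In Sox2 it lay 99 to 93 bases before the RefSeq start as its reverse complement. That window ends at 34649974, well before the Sox2 gene start of 34650405 given below, so the annotations place the start differently. The SOX site ACAATG, also contained in the joined element, was in the given window of 1 of the 7 genes (Nanog) and in 10.7% of all windows. Counting every window of the 7 genes, 3 held it. A nuclear receptor half-site stood 33 to 28 bases before the Pou5f1 start. This half-site was in 3 of the 7 genes and in 14% of all windows. GC boxes (GGGCGG, not capitalised) were in 3 of the 7, Pou5f1, Sox2 and Utf1, and in 32.7% of all windows. None of these motifs was found in the 1 window given for each of Sall1, Zscan10 and L1td1. Pou5f1 and Nanog had 2 windows and Sall1 had 3, and counting every window of the 7 genes, 5 held a GC box. A match describes letters in the window, not a bound site.

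All 8 genes fell in KD, by 2.2-fold to 3.19-fold, and in each gene every KD library lay below every CON library. Of all genes tested 30.8% were called lower (edgeR quasi-likelihood test, Benjamini-Hochberg adjusted p under 0.05), and 32.8% had all KD libraries below all CON libraries. A call in either direction was made for 63.0% of genes, so passing the test alone sets few genes apart. A called fall of at least 2-fold was rarer, at 7.11% of all genes, and all 8 genes showed one. Among the 5003 genes whose mean reached 50 CPM, 51.4% were called lower and 5.52% were called lower by at least 2-fold. The 8 core genes had a median log2 fold change of -1.54, beside 0.02 over all genes tested. Together the 8 genes took 0.318 to 0.32% of all counts in CON libraries and 0.123 to 0.134% in KD libraries. Levels below are CPM after TMM scaling between libraries. Each log2 fold change, of KD relative to CON, is given with its standard error (SE), and adjusted p-values are from edgeR over all genes.

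**Figure D1:**
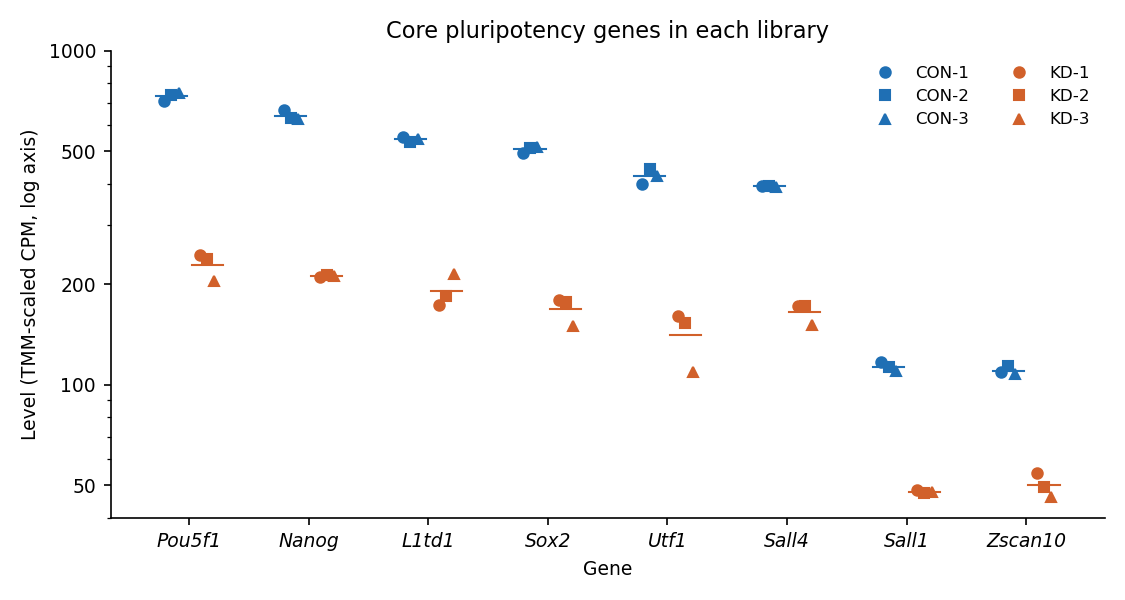
Level of each gene (TMM-scaled CPM, log axis) in the 3 CON (blue) and 3 KD (orange) libraries, with symbols for the library number and lines for group means. No gene's groups overlap, and KD-3 lies below KD-1 and KD-2 for Pou5f1, Sox2, Utf1, Sall4 and Zscan10 and above them for L1td1.

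Pou5f1 (ENSMUSG00000024406, chromosome 17, 35506018 to 35510772, forward strand, GRCm38) encodes OCT4. It stood at 708, 739 and 749 CPM in CON, whereas KD values were 245, 238 and 205 CPM. The knockdown libraries thus kept 31.4% of the control level, the lowest share of the 8 genes, a log2 fold change of -1.67 ± 0.0579 (SE; edgeR adjusted p = 2.85e-12). Of all genes tested, 424 (2.35%) had a lower log2 fold change. An antisense gene model, Gm19553, shares 317 exonic bases with Pou5f1, but it was counted at no more than 2 reads in any library.

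Sox2 (ENSMUSG00000074637, chromosome 3, 34650405 to 34652461, forward strand), the intronless gene of the OCT4 partner, had 495, 512 and 514 CPM in the CON libraries. Its KD values were 180, 177 and 150 CPM, with KD-3 the lowest. This left 33.3% of the transcript, with a log2 fold change of -1.59 ± 0.0588 (SE; edgeR adjusted p = 5.77e-12). Sox2 lies inside Sox2ot, a long noncoding RNA gene on the same strand, and shares no exonic base with it. Sox2ot, named after its values were seen, fell further, from 82, 89 and 63 counts in CON to 7, 18 and 21 in KD (log2 fold change -2.56, SE 0.334, edgeR adjusted p = 6.85e-06).

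Nanog (ENSMUSG00000012396, chromosome 6, 122707489 to 122714633, forward strand) was measured at 665, 627 and 625 CPM in CON. Its KD libraries were close together at 210, 213 and 212 CPM. The group means were 639 ± 22.8 and 212 ± 1.79 CPM (SD, n = 3), a log2 fold change of -1.59 (SE 0.0417, edgeR adjusted p = 1.37e-13). The spread between its KD libraries was 0.845% of their mean, against 9.3% for Pou5f1 and 9.6% for Sox2. The 3 best known factors therefore lost similar shares of their transcript, with 31.4 to 33.3% left.

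Of the spalt genes, Sall4 (ENSMUSG00000027547, chromosome 2, 168748332 to 168767943, reverse strand) had CON values of 394, 395 and 392 CPM. In KD it had 172, 172 and 151 CPM. The fall left 41.9% (-1.26 ± 0.0511 on the log2 scale, SE; edgeR adjusted p = 1.56e-11). A noncoding gene model on the opposite strand, Gm14261, shares 526 exonic bases with it and held between 2 and 22 counts per library, against at least 5517 for Sall4. Its own fall (log2 fold change -1.72, edgeR adjusted p = 0.0148) was not called without CON replicate 1 (adjusted p = 0.0974) or KD replicate 3 (adjusted p = 0.0577).

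Sall1 (ENSMUSG00000031665, chromosome 8, 89027235 to 89044162, reverse strand) was the least abundant per length of the 8. Its levels were 117, 113 and 110 CPM in CON and 48.3, 47.6 and 47.8 CPM in KD. A share of 42.3% was left, close to that of Sall4 (-1.24 ± 0.0503 on the log2 scale, SE; edgeR adjusted p = 1.49e-11). The other spalt genes were scarce, and their values are outside the naming rule. Sall3 fell 2.46-fold, from 8.64 ± 1.68 to 3.51 ± 0.2 CPM (SD, n = 3; edgeR adjusted p = 2.15e-06). Sall2 missed the threshold, at 5.14 ± 0.82 CPM in CON against 4.97 ± 0.419 in KD (log2 fold change -0.05, SE 0.144, edgeR adjusted p = 0.798), and its sign turned with libraries scaled by size only (0.18).

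Utf1 (ENSMUSG00000047751, chromosome 7, 139943789 to 139945112, forward strand) was the most variable. It had 398, 443 and 421 CPM in CON and 161, 153 and 109 CPM in KD, where the third library was well below the others. The spread between KD libraries was 19.9% of their mean, the widest of the 8, and 5.28% in CON. Its log2 fold change of -1.58 has an SE of 0.119 (edgeR adjusted p = 6.73e-07), and without KD replicate 3 it was -1.43.

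Zscan10 (ENSMUSG00000023902, chromosome 17, 23600856 to 23611019, forward strand) lost the least. CON libraries had 109, 114 and 108 CPM and KD libraries 54.6, 49.5 and 46.3 CPM. This left 45.5% (log2 fold change -1.14, SE 0.0613, edgeR adjusted p = 3.92e-10). With libraries scaled by size only, its log2 fold change was -0.91, less than 2-fold, while the other 7 stayed at -1.01 or lower.

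L1td1 (ENSMUSG00000087166, chromosome 4, 98726734 to 98738480, forward strand) had 553, 532 and 544 CPM in CON. In KD it had 173, 185 and 215 CPM, and KD-3 was the highest, unlike in the other genes. The fall left 35.2% (-1.51 ± 0.0635 on the log2 scale, SE; edgeR adjusted p = 2.32e-11).

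**Figure D2:**
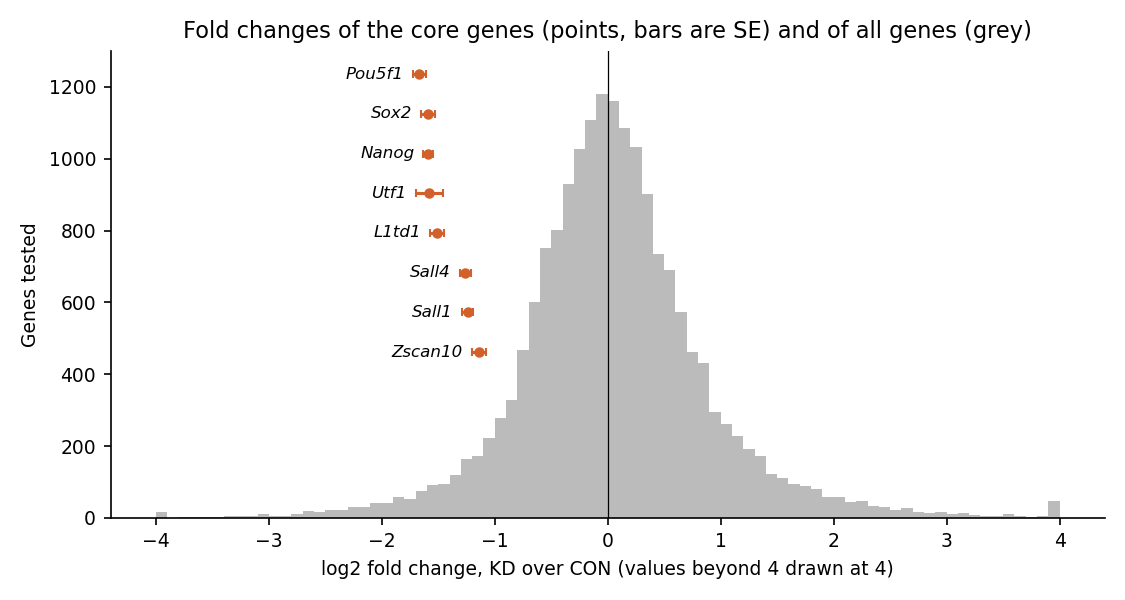
Log2 fold change of KD over CON for the 8 genes (points, bars are the SE, heights only separate the labels) over a histogram of all 18019 genes tested (grey). The 8 lie between -1.67 and -1.14, in the lower tail of a distribution whose median is 0.02.

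In the authors' deposited table, which gives CON over KD, the same genes have log2 fold changes from 1.15 (Zscan10) to 1.68 (Pou5f1). Which test gave that table is not stated in the labels or headers used here. Scaling by library size only moved the median log2 fold change of all genes by 0.23, from 0.02 to 0.25, and that of the 8 genes from -1.54 to -1.31. Under this scaling 3535 genes were called lower and 8280 higher, beside 5543 and 5801 with TMM, and all 8 genes were still called lower.

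Levels of different genes were compared per length, with the FPKM values the authors deposited. In CON the order was Utf1 (316 ± 16 FPKM, SD, n = 3), Pou5f1 (300 ± 8.07), Nanog (263 ± 10.1), Sox2 (227 ± 4.23) and L1td1 (158 ± 3.42). Sall4 (65.6 ± 0.259 FPKM), Zscan10 (35.6 ± 1.08) and Sall1 (19.9 ± 0.722) followed at a distance. Utf1 and Pou5f1 overlapped between libraries and the other neighbours in this order did not. In KD the order of the means was unchanged. Utf1 (124 ± 24.5 FPKM), Pou5f1 (110 ± 10.1) and Nanog (102 ± 1.08) then overlapped, and Sox2 was at 88.8 ± 8.41, L1td1 at 65.1 ± 7.58, Sall4 at 32.2 ± 2.32, Zscan10 at 19 ± 1.55 and Sall1 at 9.84 ± 0.0459 FPKM. Among all genes tested, Pou5f1 went from rank 113 in mean FPKM to rank 311, Nanog from 126 to 354 and Sall1 from 2806 to 5659. Even after the fall, Utf1, Pou5f1, Nanog and Sox2 were among the 441 highest genes per length.

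The 5 genes with the highest FPKM in CON fell by 2.84-fold to 3.19-fold, and the 3 with the lowest fell by 2.2-fold to 2.39-fold. Whether the genes fell by unequal amounts was examined with the ratio of each gene's counts to those of Pou5f1 in the same library, which needs no scaling between libraries. For Sall4 this ratio was 0.556, 0.534 and 0.524 across CON libraries, rising to 0.699, 0.723 and 0.735 across KD libraries, a 1.34-fold higher ratio in KD. The Sall1 ratio was 0.166, 0.152 and 0.147 in CON and 0.197, 0.2 and 0.233 in KD (1.35-fold higher). That of Zscan10 was 0.153, 0.155 and 0.144 in CON and 0.223, 0.208 and 0.226 in KD (1.45-fold higher). These 3 genes thus lost less transcript than Pou5f1 in every pairing of a CON with a KD library. Sox2 also kept apart, by a small step, at 0.699, 0.693 and 0.687 in CON and 0.732, 0.744 and 0.732 in KD (1.06-fold higher).

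The ratios of Nanog, Utf1 and L1td1 overlapped between the groups. Nanog had CON ratios of 0.834 to 0.94 and KD ratios of 0.855 to 1.03 (log2 difference 0.08). Utf1 had CON ratios of 0.562 to 0.599 and KD ratios of 0.531 to 0.658 (0.08). For L1td1 the log2 difference was 0.16. These differences rested on single libraries: without KD replicate 3 they were 0.0043 for Nanog, 0.18 for Utf1 and -0.0039 for L1td1. Leaving out each library in turn gave 0.0043 to 0.14 for Nanog, 0.02 to 0.18 for Utf1 and -0.0039 to 0.28 for L1td1. With 3 libraries against 3, the smallest two-sided p an exact permutation test can give is 0.1, and the 4 ratios without overlap reached it (0.175 after Benjamini-Hochberg adjustment over the 7 ratios). Exact permutation p-values of the other 3 were 0.5 for Nanog, 0.4 for Utf1 and 0.7 for L1td1 (adjusted 0.583, 0.56 and 0.7), which does not show that they fell by the same amount as Pou5f1.

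**Figure D3:**
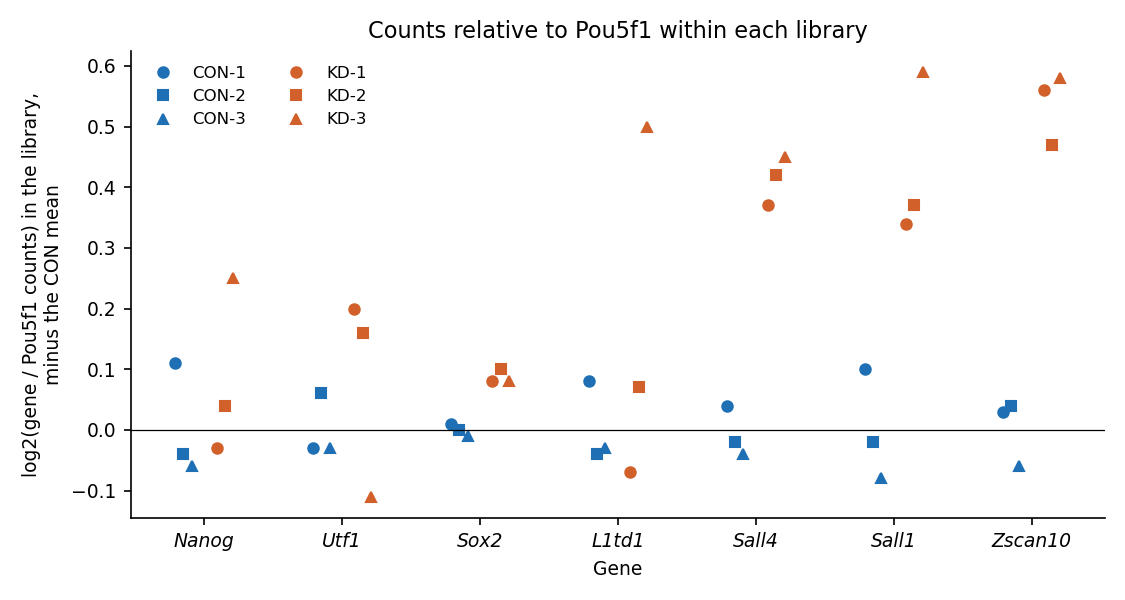
Log2 ratio of each gene's counts to the Pou5f1 counts of the same library, minus the gene's CON mean, for 3 CON (blue) and 3 KD (orange) libraries. Sall4, Sall1 and Zscan10 sit clearly above the CON libraries in all 3 KD libraries, while Nanog, Utf1 and L1td1 overlap, with KD-3 (triangle) apart.

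KD-3 differed from KD-1 and KD-2 along with the GC content of the transcripts. On the log2 CPM scale, KD-3 was lower than the mean of KD-1 and KD-2 by the largest amount for Utf1 (difference -0.52), whose longest coding transcript has 63.5% GC. It was also lower for Sox2 (-0.25, 50.5% GC), Pou5f1 (-0.23, 57.6%), Sall4 (-0.19, 53.8%) and Zscan10 (-0.17, 57.2%). Sall1 (-0.01, 51.6%) and Nanog (0.0, 45.8%) showed almost no difference, and L1td1 (47.8% GC) was higher by 0.27. Over 9850 genes whose mean reached 10 CPM, which share the same libraries, the same difference correlated with GC content at r = -0.73 (Spearman's rho = -0.74). Its median ran from 0.171 in the tenth of genes with the lowest GC to -0.233 in the tenth with the highest. Sox2, Sall4, Nanog, Pou5f1 and Zscan10 lay below the medians of genes with like GC content (Zscan10 by the least), Sall1 lay close to them and L1td1 lay above, while Utf1 had more GC than the median of the highest bin (59.9%).

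**Figure D4:**
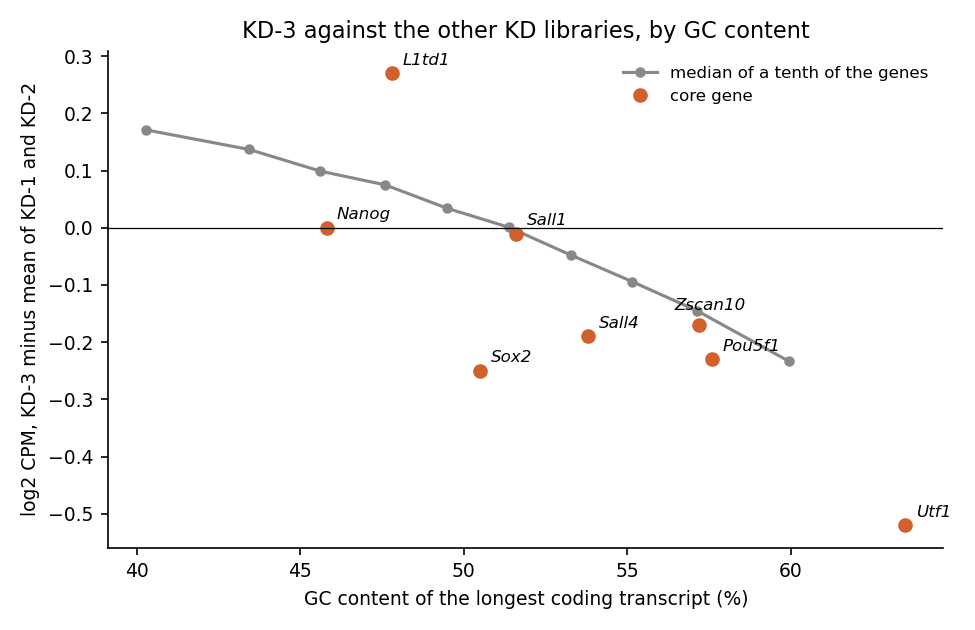
Difference in log2 CPM between KD-3 and the mean of KD-1 and KD-2, against GC content (%) of the longest coding transcript, for the 8 genes (orange) and as medians over bins of equal size of 9850 genes (grey line). The grey medians run from 0.171 down to -0.233, and Utf1 (-0.52) and L1td1 (0.27) are the lowest and highest of the 8.

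The log2 fold change of KD over CON also moved with GC, from a median of -0.183 in the tenth of genes with the lowest GC to 0.123 in that with the highest. Removing a GC trend from each library, an alternative chosen after seeing the data, left all 8 genes called lower in edgeR. Pou5f1 was then at -1.77, Utf1 at -1.73, Sox2 at -1.57, Nanog at -1.47 and L1td1 at -1.41. Sall4 (-1.28), Sall1 (-1.25) and Zscan10 (-1.23) were again the 3 smallest falls, though the step between L1td1 and Sall4 narrowed. Leaving out KD-3 gave log2 fold changes from -1.61 (Pou5f1 and L1td1) to -1.09 (Zscan10).

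Most of the listed targets of OCT4, SOX2 and NANOG fell too. Of 24 listed targets, all tested, 23 fell and 1 rose, and 21 fell at least 2-fold, beside the shares of 30.8% and 7.11% over all genes. Among genes whose mean reached 50 CPM these shares were 51.4% and 5.52%. The list was chosen with earlier results of these data known, so its counts are not independent support. Of the 12 stem cell markers above, 9 are also on this list, so the falls of the 2 sets are largely the same values. The median log2 fold change of the list was -1.54. Zfp42, the naive-state marker also known as Rex1, had the smallest p (log2 fold change -2.07, SE 0.0473). Phc1, a Polycomb subunit gene, fell 3.44-fold and Tdgf1, which encodes the Nodal coreceptor Cripto, 3.99-fold. Rest, a repressor of neuronal genes, fell 3.82-fold. Fgf4, whose enhancer is a classic OCT4-SOX2 site, fell from 207 to 58.4 CPM, and Fbxo15 from 226 to 89.3. Dppa4 fell least, from 156 to 136 CPM (log2 fold change -0.19, edgeR adjusted p = 0.00739), and with scaling by size only it was at 0.04 and not called. The riser was Lefty1, an inhibitor of Nodal signalling, from 21.8 ± 0.811 to 39.5 ± 4.69 CPM (1.81-fold, SD, n = 3, edgeR adjusted p = 3.16e-07), whereas its relative Lefty2 went from 141 to 69.8 CPM.

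Transcripts of genes whose proteins work with the core factors showed smaller and mixed changes. All 45 partner genes were tested, and 31 fell, 8 rose and 6 missed the threshold, where 30.8% of all genes fell, 32.2% rose, and 51.4% fell among genes whose mean reached 50 CPM. Their median log2 fold change was -0.37. Of the 45, 6 fell at least 2-fold, beside 7.11% of all genes and 5.52% of genes whose mean reached 50 CPM. The nuclear receptor coactivator gene Ncoa3 fell 2.13-fold, the RNA-binding protein gene Lin28a 2.84-fold and the corepressor gene Trim28 2.31-fold. Subunits of the PAF1 elongation complex split, as Ctr9 (1.68-fold) and Paf1 (1.48-fold) rose while Cdc73 fell from 117 to 81.6 CPM (log2 fold change -0.53, and -0.31 with the GC trend removed). Leo1 was called higher by a small step (0.15, edgeR adjusted p = 0.0294). That call was lost without CON replicate 1 (edgeR adjusted p = 0.106), CON replicate 2 (0.133), KD replicate 2 (0.0739) or KD replicate 3 (0.067). With all libraries it was also lost in another test, DESeq2 (log2 fold change 0.13, DESeq2 adjusted p = 0.0544). Rtf1 was not called (0.08, adjusted p = 0.218), but was with libraries scaled by size only (0.31) or the GC trend removed (0.18). The remodeller ATPase genes Chd4 and Smarca4 rose 1.27-fold and 1.24-fold. With libraries scaled by size only, 23 partner genes fell and 13 rose.

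**Figure D5:**
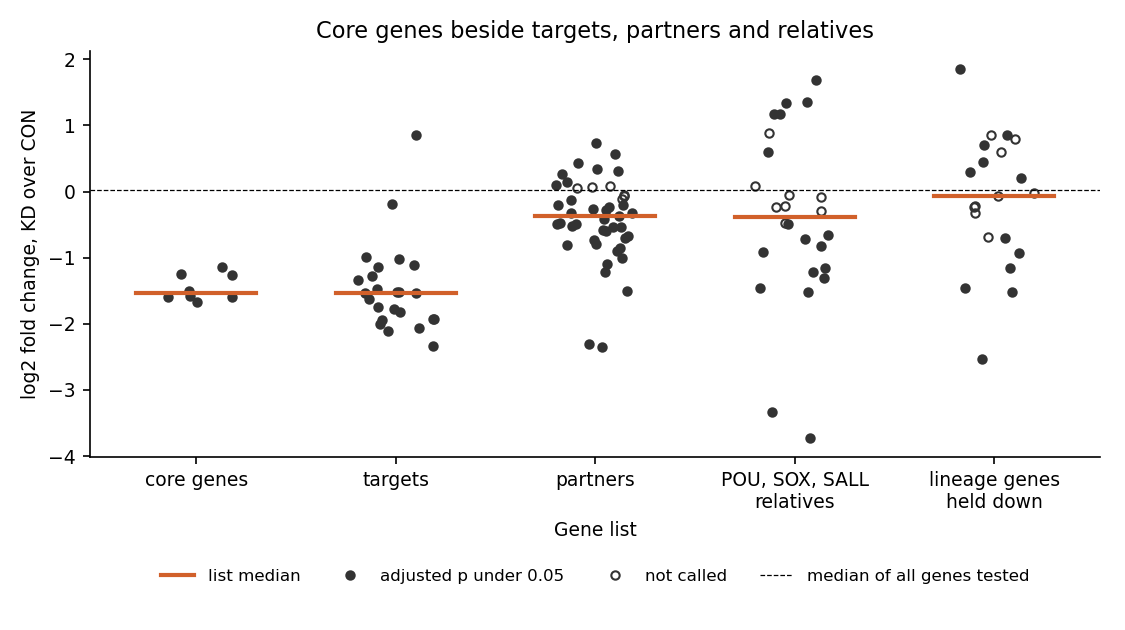
Log2 fold change of KD over CON for each tested gene of 5 lists, filled where the edgeR adjusted p was under 0.05, with the list median (orange bar) and the median of all genes tested (dashed line). The core genes and their targets both have a median of -1.54, against -0.37 for partners, -0.38 for relatives and -0.06 for lineage genes.

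Relatives of OCT4, SOX2 and the SALL proteins were followed because some can act in place of the core members. Of 34 listed POU, SOX and SALL genes, 26 were tested, of which 12 fell, 6 rose and 8 missed the threshold (median log2 fold change -0.38), beside shares of 30.8% lower and 32.2% higher over all genes. Pou2f1, which encodes the widely expressed OCT1, fell 1.58-fold from 115 ± 2.37 to 72.7 ± 3.53 CPM (SD, n = 3). Falls of Pou6f1 (1.76-fold) and Sox13 (1.89-fold) were of similar size, and Pou4f2 dropped from 2.85 to 0.278 CPM. Its paralog Pou4f1, a factor of sensory neurons, rose 3.22-fold to 19.8 ± 1.01 CPM (SD, n = 3), and Sox4, Sox6 and Pou3f3 rose 1.51-fold, 2.25-fold and 2.25-fold. Outside the naming rule, Sox15 fell 1.64-fold from 10.5 to 6.37 CPM, and Sox3, an X-linked relative of Sox2, missed the threshold at 5.27 ± 0.37 CPM in CON against 4.94 ± 1.4 in KD (SD, n = 3; edgeR adjusted p = 0.685). All listed relatives together summed to 388 to 409 CPM in CON, below Sox2 alone, and to 282 to 317 CPM in KD, above Sox2 alone.

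Lineage genes that the core factors are known to hold down were called in either direction about as often as genes at large (30.8% lower, 32.2% higher). Of 24 listed, 21 were tested, of which 6 rose, 6 fell and 9 missed the threshold. The median log2 fold change was -0.06, and 2 of the listed genes are also among the relatives. Hand1, a factor of trophoblast and mesoderm, fell 5.79-fold from 28.3 ± 1.29 to 4.88 ± 0.317 CPM (SD, n = 3), Sox1 2.76-fold, Eomes 1.9-fold and Cdx2 1.63-fold. Fgfr2, Meis1, Tfap2c and Gata3 rose by 1.37-fold, 1.62-fold, 1.15-fold and 1.22-fold. The Gata3 call was lost without CON replicate 3 (edgeR adjusted p = 0.0564) or KD replicate 2 (0.0536). Gata4, an endoderm factor, was at 8.76 CPM in CON against 8.6 in KD, without a call.

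Flanking genes gave counts near the shares over all genes (30.8% lower, 32.2% higher). The nearest tested gene on each side of the 8 genes gave 16 neighbours, of which 6 fell, 4 rose and 6 were not called. A called fall of at least 2-fold was seen in 1 of the 16, beside 7.11% of all genes. It was that of the gene model Gm3143 beside Sox2, which is scarce (0.426 CPM in CON). Both neighbours of Nanog fell. The pseudogene Gm10224, 8460 bases away, fell just short of 2-fold (log2 fold change -0.99, edgeR adjusted p = 0.00448), and leaving out single libraries gave -1.06 to -0.89. Slc2a3, a glucose transporter gene 13175 bases from Nanog, fell 1.67-fold from 4083 ± 62.7 to 2439 ± 31 CPM (SD, n = 3). Tcf19, 1961 bases from Pou5f1, fell 1.41-fold. Kndc1, 2251 bases from Utf1, was not called (21.5 CPM in CON, 23.3 in KD), and Zfp13, 1368 bases from Zscan10, rose 1.25-fold. The rise of Cyld, near Sall1, was not called without CON replicate 2 (edgeR adjusted p = 0.164), CON replicate 3 (0.0819), KD replicate 2 (0.0648) or KD replicate 3 (0.0767). With libraries scaled by size only, Kndc1 (0.34), Atp9a (0.33), Tox3 (0.46) and H2-Q10 (0.6) were called higher by log2 fold change, and the fall of Zfp64 (-0.08) was not called. Other settings also changed calls: H2-Q10 was higher with no count filter (edgeR adjusted p = 0.0439), counts divided by 2 (0.0426), the GC trend removed (0.0421) and without CON replicate 3 (0.0112) or KD replicate 3 (0.0279). Dnajc19 was lower with no count filter (0.0291) and without KD replicate 1 (0.0134), and Atp9a was higher without KD replicate 3 (0.00254).

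The mean profile of the 8 genes over the 6 libraries, centred on the log2 CPM scale, was compared with 4952 other genes of at least 50 CPM. The 5 nearest by Euclidean distance were Tbx3 (0.0605), Laptm5 (0.088), Rcc2 (0.0912), Ung (0.101) and Slc29a1 (0.103). Tbx3, a T-box factor of naive stem cells that is also on the target list, fell 2.8-fold from 499 ± 10.3 to 178 ± 6.81 CPM (SD, n = 3). Laptm5 encodes a lysosomal membrane protein, Rcc2 a chromosome-associated protein, Ung the uracil-DNA glycosylase and Slc29a1 a nucleoside transporter, and they fell between 2.61-fold and 2.82-fold. The members themselves lay 0.197 (Sox2) to 0.396 (Zscan10) from their own mean profile.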

How the data were processed

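The deposited table holds raw read counts per gene and FPKM values for 6 libraries, per the file headers, with a log2 fold change and an adjusted p-value computed by the authors. FastQC 0.11.9, STAR 2.5.3a, featureCounts and mm10 are named in the submitters' processing notes; the annotation, strand and multi-mapping settings were not given in the sources used here. Between 70 and 71.7% of counts from 1 to 20 were even, so counts may hold both mates of a pair, and counting error would then be larger than they show.

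Counts were tested with edgeR 4.0.16 in R 4.3.3 (filterByExpr, TMM factors 0.9222 to 1.084, robust quasi-likelihood F-test, Benjamini-Hochberg over 18019 genes, threshold 0.05), after a check on simulated counts. The SE is the log2 fold change over the square root of F. FPKM, made by the authors, was used only to compare genes. The members and lists were chosen with earlier results of these data known. Named genes were Nat10, the members, up to 4 genes per list and direction by smallest p at 1 CPM or more, flanking or exon-overlapping genes and the 5 most alike. One gene that this rule names is not reported here. Fgf4, Fbxo15, Dppa4, Lefty2, Cdc73, Leo1, Rtf1, Gata4, Sox2ot, Sox3, Sox15, Sall2, Sall3 and Gm19553 were added after their values were seen. Positions are from GENCODE M21 (GRCm38), and 99.6% of identifiers matched. Dates had replaced 26 gene symbols, restored by identifier.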

Additional observations from a re-analysis of the deposited data

How the results depend on the processing

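All 8 genes were called lower in each of 14 alternatives (library size only, RLE factors, 2 other count filters, DESeq2 1.42.0, replicate block, counts divided by 2, GC trend removed and each library left out), with the largest adjusted p at 0.00365 with no count filter. With libraries scaled by size only, 3535 genes were called lower and 13 partner genes higher. The same scaling turned the sign of Dnajc19 (0.03), Kank4 (0.07), Sall2 (0.18) and Sox3 (0.14), and the GC trend removal that of Dnajc19 (0.0035), none of them called under that setting. Leaving out single libraries gave -0.16 to 0.07 for Sall2, -0.33 to 0.08 for Sox3 and -0.0039 to 0.28 for the L1td1 ratio to Pou5f1, and the cause was not tested. Deviations of same-numbered CON and KD libraries from their group means correlated at r = -0.403, 0.229 and -0.177, and CON-1 was closest to KD-3 (0.451). These deviations also moved with GC content, so they cannot tell whether the numbers pair the libraries. With the replicate block 5347 genes were called lower and 5559 higher, and the median of the 8 genes was -1.55. Each of the 8 genes had at least 1694 counts in every library, so depth limits the scarce relatives and lineage genes more than these.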

Other observations

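The GC pattern was not limited to the KD group. Deviations from a group's mean balance out within the group, so the values of its libraries are not separate observations. Over the same 9850 genes, the deviation of a library from its own group's mean correlated with transcript GC content at r = -0.55 for CON-1, 0.4 for CON-2 and 0.25 for CON-3, and at 0.66 for KD-1, 0.47 for KD-2 and -0.73 for KD-3. Among the 8 genes, Utf1 (63.5% GC) was lowest in CON-1 of the CON libraries and in KD-3 of the KD libraries. L1td1 (47.8% GC) was highest in CON-1 and in KD-3. Nanog (45.8% GC) was highest in CON-1 but nearly level in KD (210, 213 and 212 CPM). Sox2, with 50.5% GC, was lowest in CON-1 and in KD-3, so the genes did not all follow their GC content.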
